A study of Mus musculus with 58 samples.

Results

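Keratins are the proteins of the intermediate filaments that give epithelial cells their mechanical strength. Every filament is built from pairs of a type I and a type II keratin, and the type II genes lie together on mouse chromosome 15 and most type I genes together on chromosome 11. Which pair a cell makes depends on the kind of epithelium. Squamous epithelia are stratified: Krt5 and Krt14 pair in their basal layer, Krt4 and Krt13 in the upper layers of internal mucosa, Krt1 and Krt10 in the upper layers of epithelium that cornifies, and Krt6a, Krt6b, Krt16 and Krt17 in appendages and in wounded or fast-dividing epithelium. Simple epithelia have 1 cell layer and use Krt8 and Krt18, joined by Krt7, Krt19 or Krt20 in ducts, airways and the glandular gut.

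All genes with a symbol of Krt followed by a number were taken, leaving out the keratin-associated proteins. They came to 53 of the 20018 genes named on the array, 27 on chromosome 11 and 26 on chromosome 15. Of these genes, 11 had 2 probes, and the brighter probe was used. The value of a gene is the log2 ratio of the tissue RNA (Cy5) to a common reference RNA pooled from mouse cell lines (Cy3) at the same spot, so a value of 0 is a signal equal to that of the reference. A spot at background in both dyes also gives a value near 0. Since the reference holds a different amount of every gene, levels of different genes are not set against each other.

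The mice were Muta™Mouse males of about 13 weeks, which carry a bacterial lacZ transgene for mutation scoring. They were given olive oil alone, the vehicle, or indeno(123,cd)pyrene (IP) in olive oil, by gavage on each day for 28 days, and tissue was taken after 3 further days without dosing. The daily dose of IP was 12.5, 25 or 50 mg per kg of body weight. Each dose group held 5 mice in each tissue. The vehicle group held 5 mice in lung (mice 1 to 5) and 4 in liver and forestomach (mice 1, 2, 3 and 5), and a mouse keeps its number across its tissues. RNA came from random sections of whole tissue, so that in these bulk samples fewer cells of a type and less RNA per cell cannot be told apart. The forestomach is the squamous, keratinized part of the rodent stomach and adjoins the glandular stomach. Lung holds simple epithelium together with the stratified basal cells of its large airways, and hepatocytes and bile ducts are simple epithelia.

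The labelled tissues carried their markers. The mean log2 ratio of the lung epithelium markers lay between 5.53 and 6.18 on the lung arrays and at most at 2.53 elsewhere, that of the hepatocyte markers between 7.55 and 8.7 in liver and at most at 3.62 elsewhere, and that of the cornified envelope genes between 3.51 and 4.32 in forestomach and at most at 0.34 elsewhere. Bile duct markers lay between −1.06 and −0.65 in liver, mesothelium markers between −1.03 and 1.07 in lung, and the hair keratin-associated genes did not exceed 0.5 in any tissue. Cy5 was well above background for 53 to 70.4% of probes on 16 lung arrays, for 37.6 to 45% on 14 liver arrays and for 43 to 58.9% on 17 forestomach arrays. It was so for 83.8 to 90.7% in the lungs of mice 3, 8, 13 and 18, for 66.6 to 78.9% in the livers of mice 9, 13, 15, 16 and 20, and for 81.2 to 85.9% in the forestomachs of mice 8 and 18. All livers were hybridized on 3 slides of their own and the remaining tissues together on 5, so that liver and slide cannot be told apart. On the 5 shared slides every lung lay in row 1 and every forestomach in row 2. Row and the difference between these 2 tissues therefore cannot be told apart. On all but 2 arrays, both of liver, each dose had its own position on the slide, and dose and position cannot be told apart either. No keratin spot was saturated.

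The stretch upstream of a keratin start site was available for 36 of the 53 genes, as 37 promoters among 32851, from RefSeq on the mouse build GRCm38.p6. In the 250 bases before the start, searched on both strands, the TATA box letters TATAAA were found in 17 keratin promoters (45.9%, against 12.4% of all promoters). The letters GCGTG, the core of the element bound by the aryl hydrocarbon receptor that polycyclic aromatic hydrocarbons activate, were found in 4 (10.8%, against 28.2%). The AP-1 letters TGANTCA were found in 2 (5.41%, against 6.75%) and the GC box GGGCGG in 2 (5.41%, against 32.7%). The 4 stretches below are shown because they stand for the groups the results turn on, cornifying (Krt10), basal (Krt14) and simple or glandular epithelium (Krt18 and Krt20). They lie at chr11:99389365-99389614, chr11:100206031-100206280 and, for Krt20, chr11:99438154-99438403, all on the minus strand, and at chr15:102027966-102028215 on the plus strand for Krt18. Each is written 5′ to 3′ on the strand of its gene, and capitals mark TATAAA, and GCGTG or its reverse complement. A match is a match of letters, not a site shown to be bound.
Krt10: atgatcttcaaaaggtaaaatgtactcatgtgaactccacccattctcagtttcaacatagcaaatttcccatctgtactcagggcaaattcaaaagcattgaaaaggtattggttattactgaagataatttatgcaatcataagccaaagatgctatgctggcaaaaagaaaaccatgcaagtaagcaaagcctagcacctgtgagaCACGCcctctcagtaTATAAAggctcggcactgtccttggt
Krt14: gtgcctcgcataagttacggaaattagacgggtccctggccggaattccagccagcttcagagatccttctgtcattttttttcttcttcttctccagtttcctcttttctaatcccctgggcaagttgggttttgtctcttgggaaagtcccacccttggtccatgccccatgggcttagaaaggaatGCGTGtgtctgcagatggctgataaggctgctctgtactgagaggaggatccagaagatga
Krt18: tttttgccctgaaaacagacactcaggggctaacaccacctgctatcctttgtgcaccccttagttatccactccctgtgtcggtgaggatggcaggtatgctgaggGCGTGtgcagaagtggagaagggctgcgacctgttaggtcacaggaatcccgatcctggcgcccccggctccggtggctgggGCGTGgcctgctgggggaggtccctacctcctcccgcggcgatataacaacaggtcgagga
Krt20: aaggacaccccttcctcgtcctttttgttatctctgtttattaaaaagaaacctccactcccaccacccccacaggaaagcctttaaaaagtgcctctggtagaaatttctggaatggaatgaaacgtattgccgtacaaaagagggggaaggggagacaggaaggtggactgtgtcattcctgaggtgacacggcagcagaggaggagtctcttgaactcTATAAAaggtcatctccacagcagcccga

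Krt10 and Krt20 hold TATAAA 26 and 29 bases before their starts. Krt14 and Krt18 hold none in these letters, Krt18 holds GCGTG in 2 places, at 143 and 61 bases before its start, and Krt14 holds it once, at 61 bases. In Krt10 it is found once, on the opposite strand, 41 bases before the start.

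Across all mice, Cy5 was well above background on 50% or more of the arrays for 35 of the 53 keratins in forestomach, 29 in lung and 15 in liver. The same held for 48.6, 62.4 and 41.3% of all probes. Thus the keratins found above background were more numerous in forestomach than in lung, although fewer probes overall were. By group, all 3 basal keratins, 4 of 5 keratins of the upper mucosal layers, 6 of 7 of the epidermis and cornifying layers, 5 of 6 of activated or appendage epithelium and all 6 of simple epithelium were above background in forestomach. In lung these were 3, 2, 5, 3 and 6, and in liver 1, 0, 4, 2 and 5. Of the 8 inner root sheath keratins, 2 were above background in forestomach, 4 in lung and 1 in liver, and of the 14 hair and nail keratins 6, 5 and 1.

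In vehicle mice, squamous keratins set the forestomach apart from both other tissues. With limma over all probes of the array, 25 of the 53 keratins passed an adjusted p of 0.05 and a 1.5-fold difference between forestomach and lung, 23 higher and 2 lower in forestomach. Over all 55681 probes 19.5% passed, 8.9% higher and 10.6% lower. Between forestomach and liver 27 passed, 26 higher and 1 lower, against 22.7% of probes, 12.8% higher and 9.89% lower. Of these 27, 17 were not well above background in Cy5 on any vehicle liver array, so that the size of their difference from liver is not exact. Higher in forestomach than in both were 22 keratins. Among the called keratins, the mice of the 2 tissues overlapped only for Krt20, in both comparisons. How often the called probes of the whole array overlap was not counted, so this does not set keratins apart.

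Both keratins of the pair of cornifying epithelium were higher in forestomach. Krt1, a type II keratin of the layers above the basal cells, had log2 ratios of 7.27, 8.12, 7.68 and 8.58 in the 4 forestomachs, −0.18, −0.42, −0.50, −0.09 and −0.17 in the lungs, and −0.44, −0.48, −0.49 and −0.35 in the livers. Its partner Krt10 had 6.33, 7.06, 7.17 and 7.19 in forestomach, −0.45, −0.50, −0.38, −0.53 and −0.78 in lung, and 0.13, 0.25, 0.15 and 0.12 in liver. For both genes every forestomach lay far above every lung and liver. The difference from lung was 8.18 ± 0.18 (SE) for Krt1 and 7.47 ± 0.22 for Krt10 (limma adjusted p 3.24e-39 and 4.01e-33, n = 4 and 5). Krt1 was not well above background on any vehicle liver array, and its Cy5 signal was at least 1590-fold higher in forestomach, a bound set on each liver array by the higher of its own signal and the dimmest signal still well above background. The second probe of Krt10 gave a smaller difference from lung, 4.6, which was called too. Of the other 5 keratins of this group, Krt79 and Krt80 were called higher in forestomach than in liver (2.86 and 0.66) and none differed in call from lung.

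Krt4 and Krt13, the pair of the upper layers of internal stratified mucosa such as oesophagus, were higher in forestomach as well. Krt4 had log2 ratios of 6.72, 6.17, 6.09 and 7.04 in forestomach and between −0.17 and 0.22 in every lung and liver. Krt13 had 4.62, 5.32, 5.84 and 5.71 in forestomach, −2.01, −1.81, −0.84, −2.10 and −1.70 in lung and −1.10, −1.39, −1.29 and −1.10 in liver. No forestomach came near a lung or liver in either gene. Neither gene was well above background on any vehicle liver array. The differences from lung were 6.52 ± 0.32 and 7.07 ± 0.30 (limma adjusted p 8.84e-24 and 2.98e-26). The second probe of Krt13 gave a smaller difference from lung, 5.67, which was called too. Krt78 and Krt76, 2 further type II keratins of stratified mucosa, were also higher than in both tissues, so that 4 of 5 members were called in each comparison, with a median difference from lung of 4.72 over the group, against 0.01 over all probes. Krt76 varied most among them, with 3.75, 2.01, 0.46 and 2.39 in the 4 forestomachs. Krt24, the fifth, was not well above background in any vehicle forestomach or liver.

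All 3 basal keratins were called higher in forestomach than in both tissues. Krt5 had ratios of 3.20, 3.63, 3.73 and 3.86 in forestomach, and Krt14, its type I partner, had 3.57, 3.86, 4.08 and 4.09. Krt15, another type I keratin of basal cells, had 3.52, 3.60, 3.46 and 3.58. For Krt15 the 4 mice spanned the narrowest range of the 3. In lung Krt5 had 0.00, 0.22, 0.13, 0.24 and 1.99 and Krt15 −1.11, −0.87, −0.15, −0.58 and 1.5, mouse 5 being the highest in both. Krt14 in lung had −1.11, −0.94, −0.40, −0.85 and −0.91 and did not set mouse 5 apart, while Krt17 had 0.75 in that lung and at most 0.01 in the 4 others. The differences from lung were 3.09 ± 0.21 for Krt5, 4.75 ± 0.17 for Krt14 and 3.78 ± 0.27 for Krt15 (limma adjusted p 6.98e-18, 4.89e-30 and 3.08e-17). At the spots of all 3 the reference signal was higher on forestomach arrays too, as described with the dye channels.

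Keratins of activated or appendage epithelium were likewise high in forestomach without any treatment, 5 of 6 being called against both tissues. Krt6b, a type II keratin, had ratios of 7.74, 7.46, 7.88 and 8.08 in forestomach against 0.08 to 0.29 in lung. Krt6a, its near relative, had 3.08, 3.14, 3.32 and 3.35 against −0.40 to 0.14. Krt16, the type I partner of both, had 3.82, 3.59, 3.96 and 3.98 against −0.35 to 0.33. In each of the 3 genes the vehicle forestomachs lay close together and apart from lung. Krt17 (3.87, 3.89, 3.52 and 3.72) and Krt42 (2.41, 3.67, 3.96 and 3.51) were the other called type I members. The differences from lung were 7.56 ± 0.30, 3.30 ± 0.50 and 3.91 ± 0.46 for Krt6b, Krt6a and Krt16 (limma adjusted p 1.56e-27, 2.86e-07 and 5.33e-10). The second probe of Krt6b gave a smaller difference from lung, 4.67, which was called too. The genes Krt6a and Krt6b are close in sequence, and how far their probes tell them apart was not tested.

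Krt8 and Krt18, the pair of hepatocytes and most simple epithelia, had similar ratios in lung and liver. Krt8 had −0.34, −0.93, −0.65, −0.08 and −0.78 in lung and 0.48, −0.24, 0.43 and −0.05 in liver. Krt18 had −0.03, −0.48, 0.34, 0.29 and −0.05 in lung and 0.48, −0.37, 0.24 and 0.25 in liver. The groups overlapped, and the differences, −0.71 ± 1.14 and −0.13 ± 1.04 lung minus liver, were not called (limma adjusted p 0.696 and 0.946). The forestomach arrays share the fit, and these genes spread widely among them. When the vehicle groups of lung and liver were fitted alone, the same difference of −0.71 for Krt8 was called.

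In vehicle forestomach, 4 simple keratins differed widely between mice. Krt8 had log2 ratios of −3.43, 1.65, 1.86 and 1.05 in mice 1, 2, 3 and 5, and Krt18 had −3.89, 0.58, 0.77 and 0.31. Krt19 had −1.90, 3.87, 3.90 and 3.48, and Krt20, a keratin of the gastric surface and intestine, had −2.83, 3.04, 2.91 and 2.75. Mouse 1 was far below the other 3 in each of the 4 genes. Against lung, Krt8 (0.84 ± 1.14), Krt18 (−0.57 ± 1.04) and Krt19 (0.21 ± 1.14) were not called (limma adjusted p 0.645, 0.739 and 0.921), while Krt20 was called at 4.92 ± 1.27 (limma adjusted p 0.00157) although mouse 1 lay within the lung range of −3.95 to −2.20. That call was lost, with a difference of 0.62, when the forestomachs with high glandular markers, described with the variable keratins, were left out. Against liver, Krt19 was called at 6.2 ± 1.21 (limma adjusted p 2.89e-05), with mouse 1 above every liver, and at 1.97 without those forestomachs. Krt20 was called against liver at 4.24 and had −0.06 without them.

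Of Krt7 and Krt19, the pair of ducts and of lung epithelium, Krt7 separated all 3 tissues. Krt19 set lung apart from liver but not from forestomach (0.21, not called). Krt7 was highest in lung (4.4, 4.64, 3.09, 4.55 and 4.13), lower in forestomach (1.54, 1.76, 1.80 and 1.37) and lowest in liver (−0.96, −1.36, −0.97 and −1.28), with no overlap between any pair of tissues. It was 1 of the 2 keratins called lower in forestomach than in lung (−2.54 ± 0.42, limma adjusted p 1.63e-06), with Krt222, a keratin-like gene (−0.83 ± 0.13, limma adjusted p 1.04e-06), whose second probe was not called (0.12). Krt19 had 2.35, 1.90, 2.13, 2.34 and 1.92 in lung and −3.89, −4.21, −3.51 and −3.83 in liver, a difference of 5.99 ± 1.14 (limma adjusted p 1.65e-05). Krt23, a type I keratin of simple epithelium, was highest in forestomach (5.24, 6.00, 6.30 and 6.55), next in lung (4.56, 4.43, 4.07, 4.70 and 5.14) and lowest in liver (0.71, 1.45, 1.76 and 1.22). All 3 comparisons of Krt23 were called, with 1.44 for forestomach minus lung, 4.74 for forestomach minus liver and 3.29 for lung minus liver.

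Lung and liver differed in fewer keratins than either did from forestomach. Called were 8 of 53, 6 higher in lung (Krt7, Krt19, Krt23, Krt42, Krt79 and Krt222) and 2 lower (Krt10 and Krt31), against 26.9% of all probes, 15.7% higher and 11.1% lower, and the share of keratins was thus below that of the array. Krt42 was 3.97 and Krt79 3.42 higher in lung (limma adjusted p 1.33e-09 and 1.01e-16). Krt79 had ratios of 3.71, 3.01, 3.00, 3.65 and 3.41 in lung and between −0.39 and 0.18 in liver, and in forestomach, with 2.56 to 3.03, its difference from lung was −0.56 and was not called, though it was with arrays centred on their median (−1.11), from Cy5 alone (−0.96), without the arrays on which many probes were above background (−0.65) and with slide as a random block (−0.62). The 2 lower calls were small, −0.69 for Krt10 and −0.66 for Krt31, and Krt16 (−0.65) and Krt73 (−0.49) were not called. When arrays were centred on their median in place of loess, both turned to 0.16 and 0.13 and 9 keratins were called, all higher in lung. From the Cy5 signal alone, 6 were called, all higher. The second probe of Krt10 did not give the call (0.36).

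Some keratins known from hair, nail and root sheath were called in forestomach too. Krt32, Krt72, Krt84 and Krt90 were chosen for naming after their values were seen, as were Krt15, Krt17, Krt20, Krt24 and Krt78. Krt84, a type II keratin of nail and tongue, had ratios of 3.50, 2.78, 3.04 and 3.26 in forestomach and was not well above background on any vehicle lung or liver array. By the same bound its Cy5 signal was at least 8.52-fold higher in forestomach than in lung and at least 7.19-fold higher than in liver. Krt32 had 4.69, 2.48, 1.19 and 1.38 and Krt72 3.33, 1.86, 1.65 and 1.91 in the same mice, mouse 1 being the highest for both. Krt90, listed in none of these groups, had 4.39, 3.23, 3.54 and 4.00. In all, 4 of 14 hair and nail keratins (Krt31, Krt32, Krt82 and Krt84) and 1 of 8 root sheath keratins (Krt72) were called higher than in lung. Of all probes, 8.9% were. Against liver, 3 of the 14 and Krt72 were called higher and Krt73 lower (−0.69). Of all probes, 12.8% were higher and 9.89% lower than in liver. The share of root sheath keratins called higher is thus close to that of the array. The other members of these groups are among the 24 keratins called in no pair of tissues. Apart from Krt8 and Krt18 their differences ranged from −0.29 to 0.69.

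**Figure D1:**
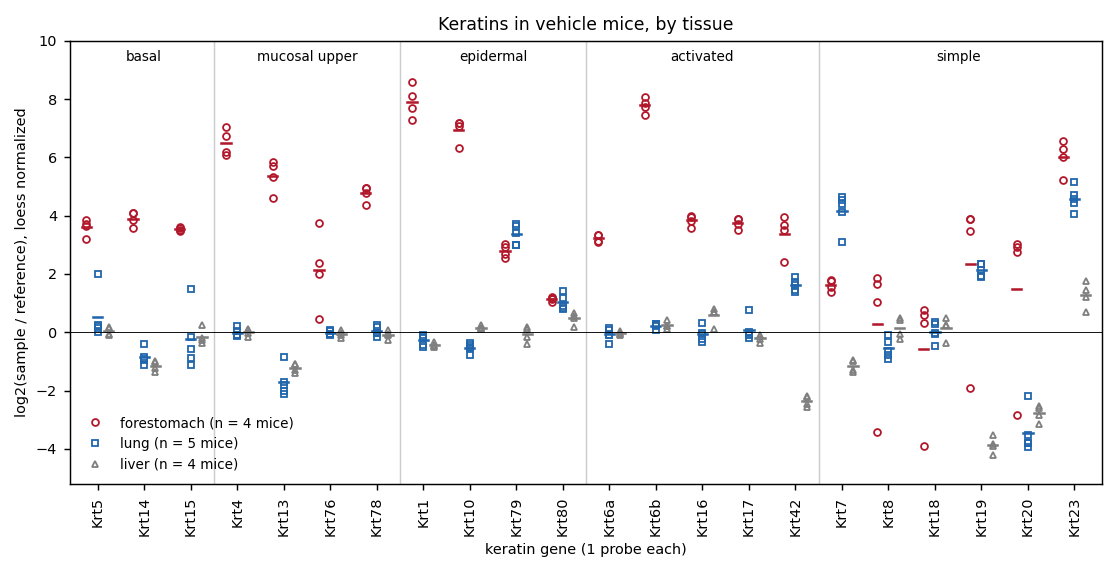
Log2 ratio to the reference (y axis) of 22 keratins in vehicle mice, ordered by group (x axis). Points are single mice coloured by tissue (lung n = 5, liver and forestomach n = 4) and bars are means. Forestomach points lie above lung and liver for the basal, mucosal, activated and Krt1 and Krt10 columns, and 1 forestomach lies far below the other 3 for Krt8, Krt18, Krt19 and Krt20.

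The reference channel differed between tissues at the same keratin spots. The reference RNA is the same on every array, yet the normalized Cy3 signal was at least 2-fold higher on vehicle forestomach than on vehicle lung arrays for 9 keratins (Krt1, Krt5, Krt10, Krt13, Krt14, Krt15, Krt17, Krt23 and Krt78), against 0.295% of all probes. Against liver it was so for the same 9 and Krt222 (0.963% of probes), and between lung and liver for Krt222 (1.06%). These counts carry no test. At the Krt5 spot the Cy3 signal before any normalization was 8130 to 12700 in forestomach, 37.5 to 178 in lung and 53 to 86 in liver. At Krt6b, by contrast, it was 79 to 111, 37 to 176 and 44 to 58.5. The spots whose Cy3 moved were bright in Cy5, but bright spots such as Krt6b and Krt4 did not share it. Why Cy3 moved was not tested.

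The Cy5 signal alone gave larger tissue differences at these spots. For Krt5 the log2 Cy3 difference between forestomach and lung was 6.50 and the log2 Cy5 difference 9.59, which left a ratio difference of 3.09. From Cy5 alone the tissue difference was thus 770-fold and not 8.50-fold. The Cy5 differences of Krt14 and Krt78 were 323-fold and 484-fold, against 26.9-fold and 26.3-fold in the ratio. Krt1 gave 1800-fold against 291-fold, Krt10 963-fold against 177-fold and Krt13 545-fold against 134-fold. For the brighter probe of Krt6b (185-fold against 189-fold) and for Krt4 (98.0-fold against 91.6-fold) both scales gave nearly the same value. Of these genes, Krt1 was well above background on only 1 of the 5 vehicle lung arrays, Krt78 on 2 and Krt4, Krt5 and Krt13 on 3, so that their folds rest in part on spots at background and are not exact. From Cy5 alone 25 keratins were called between forestomach and lung, 22 higher and 3 lower, and 26 between forestomach and liver, all higher. The order of keratins by size of difference therefore depended on the scale. The direction changed with it for Krt73 and Krt222 between forestomach and liver, from −0.69 and −0.07 to 0.22 and 1.68. It also changed for several keratins with small differences that were called on neither scale. Examples are Krt8 between forestomach and liver (0.13 to −0.22). Between forestomach and lung they are Krt26 (0.1 to −0.35), Krt36 (0.06 to −0.32) and Krt74 (0.09 to −0.38). Not all such changes are listed.

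**Figure D2:**
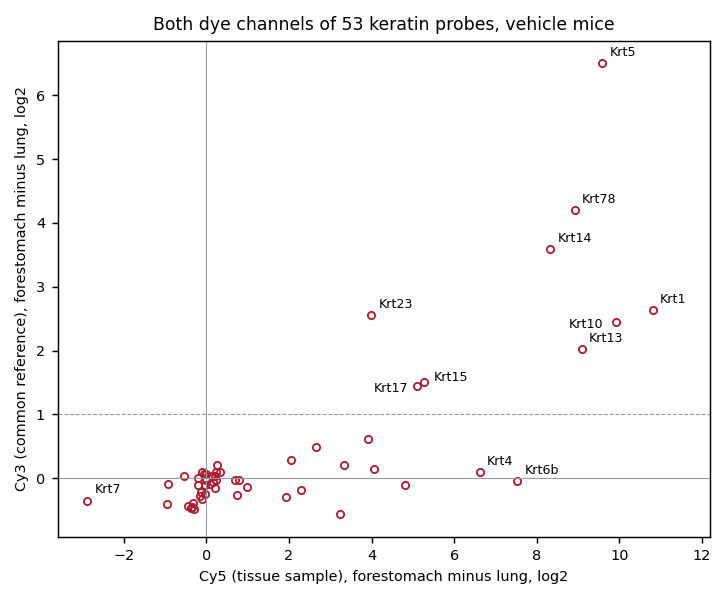
Difference between vehicle forestomach and vehicle lung in the Cy5 tissue signal (x axis, log2) and in the Cy3 reference signal (y axis, log2), 1 point per keratin, 53 in all. The dashed line marks a Cy3 difference of 1, that is 2-fold, and the 9 keratins past it include Krt5 at 6.50 and Krt78 at 4.20, while Krt4 and Krt6b lie near 0 in Cy3.

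Among forestomachs the keratins fell into steady and variable members. Over the 19 mice, with each dose group's mean removed, the SD of the log2 ratio was 0.21 for Krt5 and Krt14, 0.22 for Krt78 and 0.24 for Krt15. It exceeded 1 for 8 keratins, led by Krt20 (3.27), Krt19 (3.08), Krt8 (3.07) and Krt18 (2.81), and then Krt6a (1.32), Krt32 (1.24), Krt42 (1.18) and Krt16 (1.17). No keratin above background exceeded 1 in lung, where the highest was Krt20 (0.80), or in liver, where it was Krt23 (0.69). The median SD of the keratins above background was 0.43 in forestomach, 0.20 in lung and 0.37 in liver, against 0.23, 0.17 and 0.27 for all probes above background.

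The variable simple keratins moved with markers of glandular stomach. Of 12 such genes, among them the gastrokines, the gastric mucins and the proton pump subunits of acid-secreting cells, 10 were measured, and their mean log2 ratio was 4.51 to 6.09 in 10 forestomachs (mice 2, 3, 5, 6, 10, 13, 15, 18, 19 and 20) and 0.58 to 1.73 in the other 9. In lung and liver it did not exceed 0.34. Krt20 was 1.49 to 4.47 in the 10 and −3.08 to −1.74 in the 9. Krt19 was 1.73 to 5.03 against −2.13 to −0.98, Krt8 −0.34 to 3.05 against −4.29 to −3.43, and Krt18 −1.27 to 2.06 against −4.61 to −3.89. For these 4 genes the ranges did not overlap, and for each of the other 49 they did. Among the latter are the simple keratins Krt7 (0.42 to 2.57 against −0.34 to 1.54) and Krt23 (5.43 to 6.71 against 5.24 to 6.72). How many of all probes separate between these sets was not counted. The basal keratin Krt14 was 3.71 to 4.16 against 3.57 to 4.26, and Krt4 5.14 to 7.20 (median 6.14) against 5.57 to 7.44 (median 6.97). The sets were formed from the markers on the same arrays, so no test was made. By dose, 3 of 4 vehicle mice and 2, 2 and 3 of 5 at the rising doses were among the 10. Forestomach mouse 18, also of the 10, was the one with the most striated muscle marker signal (mean 2.93, at most 0.93 in the others), and mouse 13 the one with the most hepatocyte marker signal (3.62).

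Krt6a and Krt16 differed between the sets in another way, with ranges that overlapped. Krt6a was 1.04 to 3.67 in the 10 forestomachs with high markers and 0.01 to 3.08 in the 9 others, and Krt16 was 1.77 to 4.34 against 0.72 to 3.82. In the 9, vehicle mouse 1 had the marker mean of 0.58 and a Krt6a of 3.08, while the 8 dosed mice had Krt6a values of at most 0.47. Krt72 and Krt32 lay the other way, 0.78 to 2.56 against 2.04 to 3.33, and 0.74 to 2.61 against 1.41 to 4.69.

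**Figure D3:**
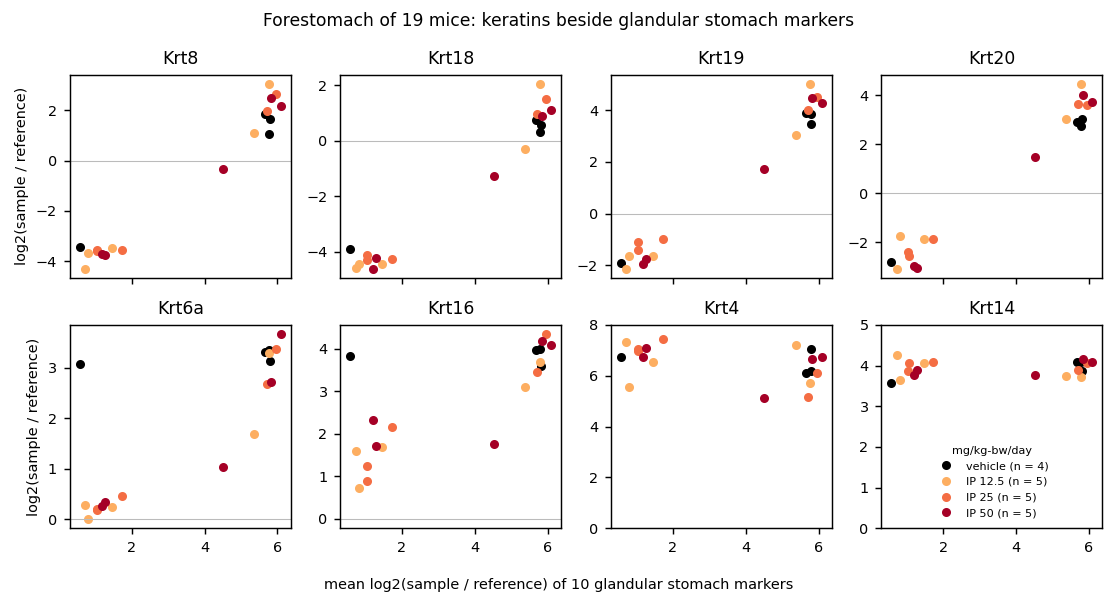
Log2 ratio of 8 keratins (y axes, 1 panel each) against the mean log2 ratio of 10 glandular stomach markers (x axes) in the 19 forestomachs, coloured by dose. Krt8, Krt18, Krt19 and Krt20 are low in the 9 mice with a marker mean of 0.58 to 1.73 and high in the 10 with 4.51 to 6.09. Krt14 has similar ranges in both, Krt4 has a median of 6.14 in the 10 and 6.97 in the 9, and vehicle mouse 1 is the low-marker mouse with a Krt6a of 3.08.

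In forestomach, no keratin was called at any dose of IP. The differences of the cornifying, mucosal and basal pairs were small, while those of Krt6a and Krt16, given below, were larger. With limma 0 of 53 passed at the low, middle and high dose, against 0, 0 and 0% of all probes. At an unadjusted p under 0.05 there were 3 (Krt6a, Krt6b and Krt16) at 12.5, 2 (Krt6a and Krt24) at 25 and 0 at 50, against 4.12, 3.6 and 3.89% of probes. The log2 difference from vehicle at the 3 doses was 0.00, 0.15 and −0.02 for Krt1, −0.02, 0.30 and 0.18 for Krt10, −0.04, 0.04 and −0.03 for Krt4, −0.13, 0.22 and −0.01 for Krt13, −0.22, 0.16 and 0.02 for Krt5 and −0.02, 0.09 and 0.03 for Krt14. The SE of the 50 mg/kg difference in limma was 0.81 for Krt6a and 1.71 for Krt18, which sets how small a change these arrays could resolve for the variable members.

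The largest decreases at 50 mg/kg-bw/day were those of Krt6a, Krt18 and Krt16, none of which passed. Krt6a had log2 ratios of 3.08 to 3.35 in the 4 vehicle mice. At 12.5 mg/kg-bw/day it had 3.30, 0.25, 0.01, 0.29 and 1.69, at 25 it had 0.21, 0.19, 2.68, 0.47 and 3.37, and at 50 it had 0.26, 0.35, 1.04, 3.67 and 2.73. Each dosed group held mice at the vehicle level and mice near 0, and the ranges overlapped with that of vehicle at every dose. Krt16 was split likewise, with a lowest, median and highest value of 0.72, 1.69 and 3.69 at 12.5, 0.88, 2.17 and 4.34 at 25, and 1.72, 2.32 and 4.19 at 50. The log2 differences were −2.12, −1.84 and −1.61 for Krt6a (SE 0.81, limma adjusted p 0.977, 1 and 1), −1.68, −1.42 and −1.02 for Krt16 (SE 0.71), and −1.42, −0.81 and −0.66 for Krt6b (SE 0.48). Krt18 had −1.06 ± 1.71 at 50. Its values split with the glandular markers, which were high in 3 of 4 vehicle mice and 3 of 5 mice at 50. The largest increases at 50 were 0.77 ± 0.51 for Krt76, 0.31 for Krt82 and 0.20 for Krt36, the last above background on 3 of 5 arrays at 50 and on 0 of 4 in vehicle.

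The result for Krt6a depended on the forestomachs with high glandular markers. With the 10 of them left out, 1 vehicle mouse remained, whose spread is then assumed to be that of the other groups, and Krt6a was called lower at each dose, by limma differences of −2.90, −2.79 and −2.78 (adjusted p 0.000426, 0.000616 and 0.00118). With the marker mean as a covariate over all 19 mice it was not called, at −1.31 for 50 mg/kg-bw/day. Both settings were chosen after the data were seen. Without the 10, Krt8, Krt18 and Krt19 of vehicle forestomach were also called lower than in lung (−2.88, −3.91 and −4.02) and Krt8 and Krt18 lower than in liver (−3.59 and −4.04). Krt20 then was called against neither tissue, with 0.62 against lung and −0.06 against liver (limma adjusted p 0.673 and 0.981), and Krt19 remained above liver by 1.97 (limma adjusted p 3.23e-05).

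In lung, no keratin was called at any dose. With limma 0 of 53 passed at the low, middle and high dose, against 0, 0.0126 and 0.079% of all probes. At an unadjusted p under 0.05 there were 1 (Krt6a), 2 (Krt18 and Krt80) and 4 (Krt18, Krt80, Krt90 and Krt222), against 3.92, 6.53 and 8.8% of probes. Krt18 had −0.03, −0.48, 0.34, 0.29 and −0.05 in the vehicle lungs. At 50 it had −0.33, −0.29, −0.31, −0.36 and −0.36, a narrow range within that of vehicle. Its differences were −0.16, −0.33 and −0.35 ± 0.12 at the 3 doses (limma adjusted p 1, 0.552 and 0.321). Krt80 had 1.19, 1.42, 0.81, 0.89 and 0.85 in vehicle and 1.23, 1.36, 1.14, 1.47 and 1.17 at 50, a difference of 0.24 ± 0.11. Among keratins above background on 50% or more of the arrays of either group, Krt10 and Krt79 followed it as the largest increases (0.18 and 0.10).

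The largest decrease in lung at 50 was that of the basal keratins. Krt5 differed by −0.51 ± 0.27 and Krt15 by −0.47 ± 0.35 (limma adjusted p 0.625 for Krt5). Both rest on vehicle mouse 5, whose values were 1.99 and 1.5. Without that mouse they were −0.14 and −0.03. Krt7, called higher in lung than in both other tissues, had a mean of 4.16 ± 0.63 (SD, n = 5) in vehicle lung. In each dose group its lowest value was on the array with the most probes above background, with 3.09, 2.75, 3.40 and 3.46 in mice 3, 8, 13 and 18 and 4.13 or more in every other lung. The part of the array in this was not tested.

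In liver, no keratin was called either. With limma 0 of 53 passed at each dose, against 0, 0 and 0% of all probes, and at an unadjusted p under 0.05 there were 1 (Krt39), 1 (Krt23) and 0, against 2.6, 4.44 and 6.87%. Krt23, a type I keratin of simple epithelium, had the largest differences. Its log2 ratios were 0.71, 1.45, 1.76 and 1.22 in vehicle, 1.94, 2.39, 2.18, 0.75 and 2.34 at 12.5, 1.98, 2.95, 3.26, 3.46 and 1.31 at 25, and 1.37, 2.61, 2.37, 2.60 and 1.51 at 50 mg/kg-bw/day. Most dosed livers lay above the vehicle range, but every dosed group overlapped with it. The overlap came from mice 9, 15, 16 and 20 (0.75, 1.31, 1.37 and 1.51), all on arrays with many probes above background. Mouse 13, on another such array, had 3.26, and no vehicle liver was on one. The part of the array in this was not tested. With these arrays left out, no keratin was called in liver either. The differences were 0.63, 1.31 and 0.81 ± 0.42 (limma adjusted p 1, 0.904 and 0.734). The hepatocyte pair differed little at 50, Krt18 by 0.05 ± 0.17, and Krt8 ranged from −0.63 to 0.42 against −0.24 to 0.48 in vehicle. Among keratins above background on 50% or more of the arrays of either group, the next differences at 50 were 0.31 for Krt42 and 0.17 for Krt19, and −0.36, −0.33 and −0.33 for Krt79, Krt16 and Krt80.

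**Figure D4:**
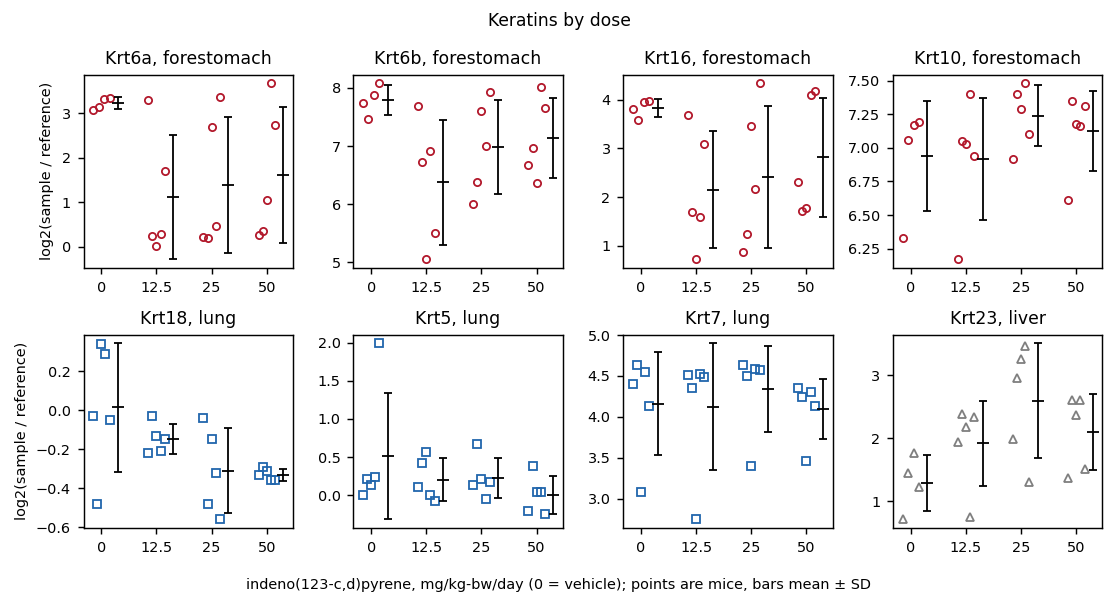
Log2 ratio to the reference (y axes) by dose of IP in mg/kg-bw/day (x axes) for Krt6a, Krt6b, Krt16 and Krt10 in forestomach, Krt18, Krt5 and Krt7 in lung and Krt23 in liver. Points are mice, and lines and bars are the mean and SD. In dosed forestomachs Krt6a spreads from 0.01 to 3.67 around a vehicle range of 3.08 to 3.35, and 1 vehicle lung stands at 1.99 for Krt5.

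Whether the effect of 50 mg/kg-bw/day differed between tissues was tested with limma as an interaction over all 58 arrays. No keratin passed in any of the 3 comparisons, against 0.0144% of probes for forestomach against lung, 0.00359% for forestomach against liver and 0.0162% for lung against liver. At an unadjusted p under 0.05 there were 2 (Krt6a and Krt82), 1 (Krt6a) and 1 (Krt80), against 2.91, 6.17 and 7.08%. The effect on Krt6a in forestomach differed by −1.73 ± 0.68 from that in lung and by −1.84 from that in liver (limma adjusted p 1 and 0.767). The effect on Krt82 was 0.37 higher in forestomach than in lung, and that on Krt80 was 0.57 higher in lung than in liver (limma adjusted p 0.700).

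Because filaments need a keratin of each type, it was asked whether the 2 partners of a pair varied together between mice of a tissue. Residuals from the dose group means were used, with 1e+05 permutations within dose groups. Of 18 combinations of 6 pairs and 3 tissues, 12 had both genes above background. In 7 of these a wide gap parted the values, in some cases of only 1 or 2 mice from the rest, so that 5 were tested. In forestomach Krt6a and Krt16 went together most closely, with Pearson r 0.94 and Spearman rho 0.91 (permutation p adjusted over the 5 relations 0.00055 and 0.00045, n = 19). The r was 0.94 without the 2 mice farthest from the median of Krt6a, and 0.89 and 0.87 within the mice with high and low glandular markers. Krt1 and Krt10 had r 0.72 and rho 0.76 (adjusted permutation p 0.0113 and 0.00278), with 0.67 without the 2 farthest mice, and 0.46 and 0.88 within the marker sets. Both pairs passed.

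The other 3 tested pairs did not pass. Krt5 and Krt14 in forestomach had r 0.63 and rho 0.54 (adjusted permutation p 0.0658 and 0.101, and r 0.57 without the 2 farthest mice). Krt4 and Krt13 had r 0.35 and rho 0.35 (adjusted permutation p 0.149 and 0.156, and r 0.29 without them). For Krt8 and Krt18 in liver both were 0.40 (adjusted permutation p 0.148 and 0.156), and r was 0.63 without the 2 farthest mice and 0.74 over the 14 livers without the arrays on which many probes were above background. Where a gap parted the values, r over the mice on 1 side of it is a description. For Krt8 and Krt18 in forestomach it was 0.97 over the 10 mice with high glandular markers and 0.60 over the 9 others, and for Krt7 and Krt19 it was 0.91 and 0.13. In lung it was 0.51 for Krt8 and Krt18 over 18 mice, −0.01 for Krt7 and Krt19 over 16, 0.37 for Krt5 and Krt14 over 19 and 0.44 for Krt4 and Krt13 over 15. In liver it was 0.61 for Krt7 and Krt19 over 17.

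Most genes of the cell envelope and of the junctions that hold keratin filaments were higher in forestomach too. Of 30 listed genes of the cornified envelope and keratinocyte differentiation 27 were measured, of which 24 were called higher in vehicle forestomach than in lung (median log2 difference 3.34, against 0.01 over all probes) and 24 higher and 1 lower than in liver (median 4.98). Krtdap, a protein of differentiating keratinocytes, differed from lung by 6.38 ± 0.12, Sprr3, a cross-linked envelope protein of internal squamous epithelium, by 6.03 ± 0.15, and Lor, the main envelope protein of epidermis, by 5.54 ± 0.23. The member lower than in liver was Trp63, the regulator of basal cells (−0.61 ± 0.12, limma adjusted p 5.76e-05), which was not called against lung (−0.40). Of the 16 genes of desmosomes and other keratin anchors, 11 were called higher and 1 lower than in lung (median 2.51), and 12 higher and 2 lower (Pkp2 and Dsg2) than in liver (median 2.20). Of all probes, 8.9% were called higher and 10.6% lower than in lung, and 12.8% higher and 9.89% lower than in liver. Dsp, the desmoplakin that ties keratin filaments to desmosomes, was higher than in lung by 3.15 ± 0.21, Pkp1 by 6.72 ± 0.23 and Dsg3 by 3.96 ± 0.30, whereas Pkp2, a plakophilin of simple epithelium and heart, was lower (−1.67 ± 0.36). No gene of either list was called at any dose in any tissue.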

How the data were processed

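RNA of lung, liver and forestomach was measured on 58 arrays of 2 colours, 1 per mouse and tissue. Intensity values come from the authors' scans through Agilent Feature Extraction, per the file headers as the median pixel brightness of each spot in Cy5 and Cy3 before correction. The log10 ratios, which per the file headers are background-subtracted and dye-normalized, were an alternative. The log2 ratios deposited by the authors, LOWESS-normalized, had a Pearson r of 0.996 to 0.999 with the scanner ratios in lung and 0.997 to 0.999 in forestomach, where they were an alternative, and −0.00681 to 0.00675 in liver, where they were not used.

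Log2(Cy5/Cy3) of the medians was normalized by loess within arrays, without background subtraction, with control and outlier spots left out and spots of a probe averaged. Probes were named through their RefSeq accessions, which gave a gene to 26413 of 55681. The highest r between 2 arrays was 0.9823, so no array was a copy of another. The software was limma 3.58.1 and statmod 1.5.0 under R 4.3.3, and files were read with data.table (version 1.17.8). Doses were compared with vehicle in a limma fit per tissue, and tissues and interactions in 1 fit of all arrays, two-sided, with Benjamini-Hochberg adjustment over all probes. Called means a change of 1.5-fold or more whose adjusted p is 0.05 or less (interactions: adjusted p alone). Bounds compare means of normalized log2 Cy5 after Aquantile and are open to dye bias, since no dyes were swapped. The fits were tested on simulated data, and the number of arrays limits the precision.

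Mouse numbers in the labels tie the tissues of an animal. The labels number 5 vehicle lungs, while the methods give 4 vehicle mice. Keratins, gene lists and tests were chosen with earlier results of these data known. Named with values are, per tissue, the 3 largest increases and decreases at 50 mg/kg-bw/day among keratins above background on 50% or more of the arrays of either group, per pair of tissues up to 6 of the largest vehicle differences in each direction among keratins above background on all vehicle arrays of the higher tissue, the partner pairs, and examples of the other lists. Alternatives were normexp with an offset of 50, median-centring, Cy5 alone, the scanner's log ratio, the deposited ratios, outlier spots kept, dim probes left out, means over probes of a gene, slide and mouse as blocks, smaller fits, other thresholds and each mouse left out. Added after seeing the data were arrays with over 1.25 times the usual share of probes above background left out, and the glandular marker mean as a covariate or as a limit of 2.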

Additional observations from a re-analysis of the deposited data

Results flagged for a closer look

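Values that stood apart from the rest of their group were looked for in 229 groups of 4 or 5 mice, by the share of the group's range that lies between the farthest mouse and its neighbour. They were found in 26 groups (11.4%). Chance gives about 1 in 20 only where groups are independent and values normally distributed. Here the keratins share arrays, so that 1 mouse can stand apart for several genes. Some keratins were also chosen by the size of their differences in the same data. The share of 11.4% therefore cannot be set against 1 in 20, and no conclusion is drawn from it.

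In forestomach, vehicle mouse 1 stood apart for 4 keratins. Its log2 ratios were −3.43 for Krt8, −3.89 for Krt18, −1.90 for Krt19 and 6.33 for Krt10, where the other 3 vehicle mice had 1.05 to 1.86, 0.31 to 0.77, 3.48 to 3.90 and 7.06 to 7.19. Its glandular marker mean was 0.58. At 50 mg/kg-bw/day, mouse 18 was low for Krt4 (5.14, others 6.64 to 7.09), Krt15 (3.05, others 3.49 to 3.64) and Krt79 (1.49, others 2.52 to 2.89). Its array was 1 of the 2 of forestomach with many probes above background and had the highest striated muscle marker mean, 2.93. Mouse 16 was low for Krt10 (6.61, others 7.16 to 7.35). Krt31 was high in mouse 2 (0.90, others 0.55 to 0.60) and in mouse 17 (0.92, others 0.26 to 0.44), and Krt5 in mouse 13 (3.87, others 3.73 to 3.77).

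In lung, Krt7 stood apart downward in mouse 8 (2.75, others 4.35 to 4.53), mouse 13 (3.40, others 4.50 to 4.63) and mouse 18 (3.46, others 4.13 to 4.35), all on arrays with many probes above background. Mouse 8 was also high for Krt13 (−0.68, others −2.17 to −1.82), Krt14 (−0.42, others −1.14 to −1.03) and Krt16 (0.16, others −0.34 to −0.22). Vehicle mouse 5 was high for Krt5 (1.99, others 0.00 to 0.24) and low for Krt6b (0.08, others 0.23 to 0.29). The same measure picked out Krt222 in mouse 17 (1.26, others 1.08 to 1.13), Krt23 in mouse 19 (5.01, others 4.28 to 4.43) and Krt36 in mouse 9 (0.10, others −0.23 to −0.15).

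In liver, mouse 9 stood apart for Krt14 (−1.87, others −1.36 to −1.17), Krt23 (0.75, others 1.94 to 2.39) and Krt42 (−0.99, others −2.62 to −2.34), and its array was 1 of the 5 with many probes above background. Vehicle mouse 3 was low for Krt16 (0.10, others 0.69 to 0.81). The part of the arrays and of other tissue in these values was not tested.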

How the results depend on the processing

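With each mouse left out in turn, limma called 0 to 0 keratins in every dose comparison and every interaction, 25 to 25 between vehicle forestomach and lung, 26 to 27 between forestomach and liver and 8 to 10 between lung and liver. With the mouse number as a random replicate block the counts were 25, 27 and 8 and, for the interactions, 0, 0 and 0 (correlation within mice 0.0442), so that the pairing of tissues changed no count. A 1.2-fold change at an unadjusted p under 0.05 gave 1 keratin in lung at 25 and 1 at 50, 1 in liver at 25, and 3 at 12.5 and 1 at 25 in forestomach, while an unadjusted p alone gave 2, 1 and 1 for the interactions of forestomach with lung, forestomach with liver and lung with liver. Without the forestomachs with high glandular markers, 1 keratin was called at each dose in forestomach and 1 in each interaction with forestomach, Krt6a each time. Between lung and liver the scanner's log ratio called 15 keratins (10 higher, 5 lower) and a 4-fold threshold 5, and the cause of the former was not tested. Arrays centred on their median called 9 there, all higher in lung, with Krt10 at 0.16 and Krt31 at 0.13, and Cy5 alone called 6, all higher. From Cy5 alone Krt73 and Krt222 turned to 0.22 and 1.68 for forestomach minus liver. Genes close to background, of which most keratins of liver are examples, have differences that these arrays can give as bounds at best.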
